A study of Sus scrofa with 220 samples.

Results

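The nuclear genes for subunits, assembly factors and inhibitors of the 5 respiratory chain complexes were taken from single-cell transcriptomes of pig embryos by their symbols, which begin with NDUF, SDH followed by A to D, UQCR, COX followed by a digit, or ATP5. All 54 genes that carried such a symbol also had a TPM above 1 in at least 3 of 220 cells, and they were 54 of 14721 genes that passed this limit. TPM is a gene's share of a cell's transcripts after division by transcript length. Complex I gave 25 of the genes, complex II 4, complex III 6, complex IV 13 and complex V 6. By role, 10 encode core subunits, 30 accessory subunits, 13 assembly factors and 1 an inhibitor. Subunit genes to which no symbol could be matched, and the subunit genes of mitochondrial DNA, were not analysed here.

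Respiratory chain complexes sit in the inner mitochondrial membrane, where complexes I and II pass electrons to ubiquinone, complex III passes them to cytochrome c, and complex IV passes them to oxygen. Complexes I, III and IV move protons across the membrane, and complex V, the ATP synthase, uses the returning protons to make ATP. Most subunits are encoded in the nucleus, and early mammalian embryos inherit their mitochondria from the oocyte.

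Cells came from embryos of artificially inseminated sows and their libraries followed Smart-seq2, a method that copies polyadenylated RNA along its length. Trophectoderm cells of the LB and Sph stages were not collected. Morulae (M) gave 47 cells, of which 46 came from 8 known embryos, and early blastocysts (EB) gave 24 cells of the inner cell mass (ICM) from 7 embryos and 28 cells of the trophectoderm (TE), the outer layer, from 10 embryos. Late blastocysts (LB) gave 25 cells of the epiblast (EPI), which forms the embryo proper, from 4 embryos and 36 cells of the hypoblast (HYPO), an extraembryonic layer, from 5 embryos, while 4 spherical embryos (Sph) gave 48 EPI cells and 3 of them gave 12 HYPO cells. No group was treated or modified, the sows were Large White and Landrace crosses, and the replicate is the embryo, read from the letters of each cell's name. The study inferred male and female embryos at every stage from Y chromosome genes, and embryo sex was not part of the tests here. Zona removal was used at the M and EB stages, immunosurgery at the LB stage and manual isolation at the Sph stage, so stage and method of isolation cannot be told apart. Cells held 1012604 to 5696373 counts on genes, and a sum over the cells of 1 embryo and lineage held 1 to 19 cells. Of the 41 sums, 6 held a single cell.

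As sums, EPI markers were highest in the EPI embryos, and TE markers were high in TE and also in Sph HYPO. The sum of HYPO markers did not separate HYPO from M, and single markers of each list differed from its sum. The 3 of 5 EPI markers with a matching symbol added up to 285.6 to 1144 TPM in LB EPI and to 539.4 to 637.6 TPM in Sph EPI. Their sum was 0.722 to 34.12 TPM in M and 19.6 to 174.1 TPM in Sph HYPO. NODAL, 1 of them, averaged 70.42 TPM in Sph HYPO, 57.37 TPM in LB EPI and 88.31 TPM in Sph EPI. The 5 of 6 HYPO markers with a matching symbol added up to 122.4 to 693.4 TPM in LB HYPO, 81.49 to 235.9 TPM in Sph HYPO and 163.5 to 480.1 TPM in M, and to at most 29.69 TPM in either EPI group. Among the M and ICM markers, KLF17 had a mean of 94.27 TPM in M, 91.32 in ICM, 93.21 in LB EPI and 0.21 in Sph EPI. The 6 TE markers reached a median of 42610 TPM in TE embryos and 316.6 TPM in ICM embryos. TE embryo E6-ER, a single cell, went against its label with 0.368 TPM of TE markers and no KRT8. The COX4I1 result between ICM and TE is given with and without it, and it stays in the TE means and sums. The same TE markers, mainly the keratins KRT8 and KRT18, stood at 17300 to 43070 TPM in Sph HYPO, and their part in the results there was not tested. Other TE markers were lower in Sph HYPO than in TE, with means of 0.007 against 131.6 TPM (GATA2), 24.76 against 109.6 TPM (GATA3) and 177.8 against 1527 TPM (DAB2). Of 3 markers of maternal blood or immune cells, PTPRC stood at 0 TPM in every label and CD14 averaged at most 2.396 TPM (LB EPI). HBB averaged 69.74 TPM in ICM (up to 154.2), 15.37 TPM in TE (up to 104.1) and at most 3.789 TPM (M) elsewhere. The source of HBB was not tested.

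The respiratory chain genes took a larger share of transcripts up to the EB stage than after it. Their summed level was 45590 ± 5942 TPM (SD, n = 8 embryos) in M, 49020 ± 3752 (n = 7) in ICM and 45070 ± 5392 (n = 10) in TE. It was 34860 ± 3096 (n = 4) in LB EPI, 34390 ± 1683 (n = 5) in LB HYPO, 36710 ± 2062 (n = 4) in Sph EPI and 35050 ± 8513 (n = 3) in Sph HYPO. Of 25 M and EB sums, 22 lay above all 16 LB and Sph sums, whose highest value was 41540 TPM in a Sph HYPO embryo. The 3 others were M embryo V (33080 TPM) and TE embryos AA (40870 TPM) and AI (41320 TPM), and TE embryo E6-ER stood at 49860 TPM. Neighbouring labels within the M and EB stages, and within the LB and Sph stages, overlapped. By role, 21 of the 25 M and EB sums of accessory genes lay above every LB and Sph sum, against 15 for assembly factors and 6 for core genes. Core genes summed to 11830 ± 896.2 TPM (n = 8) in M, 12470 ± 1039 (n = 7) in ICM, 9988 ± 1098 (n = 4) in LB EPI and 11420 ± 1434 (n = 4) in Sph EPI. These sums were described and not tested, and a share of transcripts does not show the amount of RNA per cell.

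**Figure D1:**
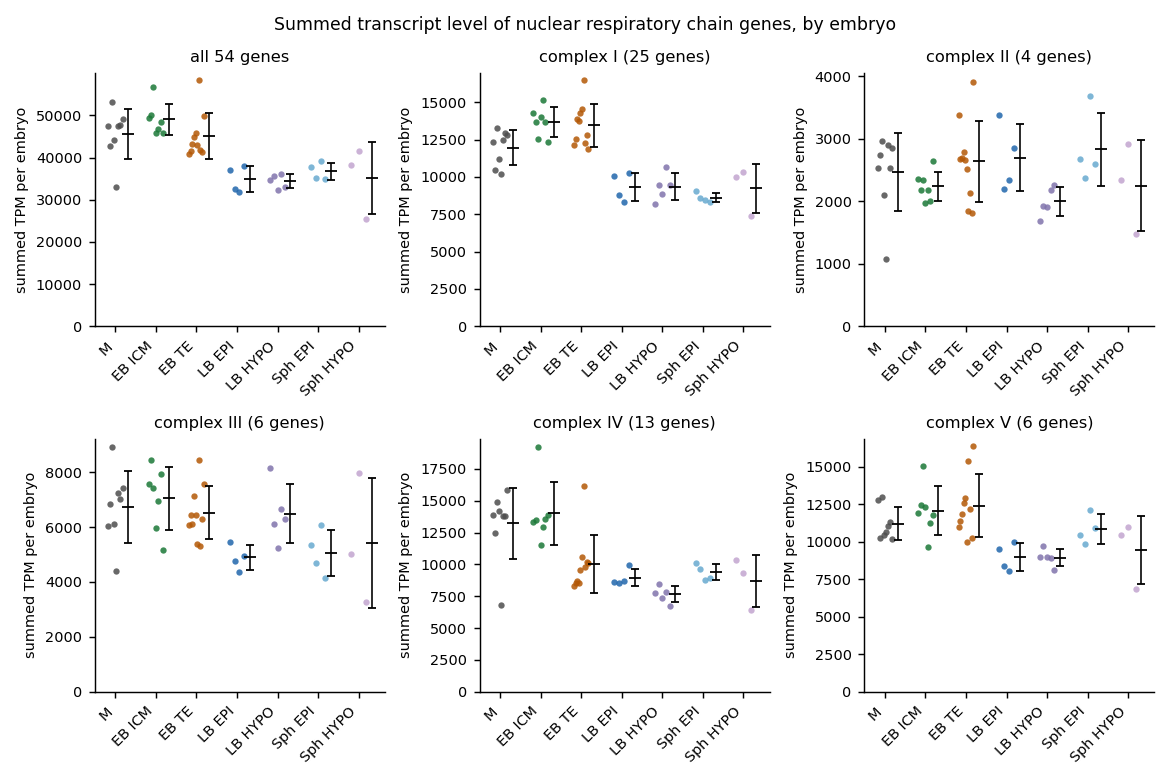
Summed TPM of the respiratory chain genes (vertical axis, from 0) in each embryo of the 7 stage and lineage labels (horizontal axis), for all 54 genes and for each complex. Points are embryos, and the bar beside them is the mean ± SD. The M, ICM and TE points lie mostly above the LB and Sph points for all genes, complex I and, for M and ICM, complex IV, but not for complex II.

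The sums of the genes found for each complex did not share this pattern to the same degree. They include assembly factors and, in complex V, the inhibitor ATP5IF1. Complex I summed to 11960 ± 1192 TPM (SD, n = 8) in M, 13660 ± 984.3 (n = 7) in ICM and 13460 ± 1425 (n = 10) in TE, against 9335 ± 940.2 (n = 4) in LB EPI and 8608 ± 313.4 (n = 4) in Sph EPI. For complex I, 23 of the 25 M and EB sums were above every LB and Sph sum. The count was 1 for complex II, 3 for complex III, 16 for complex IV and 10 for complex V. Complex IV was high in M (13220 ± 2774, n = 8) and ICM (13990 ± 2438, n = 7), while TE (10050 ± 2290, n = 10) lay near LB EPI (8949 ± 678, n = 4) and Sph EPI (9376 ± 622.8, n = 4). Complex II, which also works in the tricarboxylic acid cycle, was covered by SDHB, SDHC, SDHD and SDHAF2 only, without SDHA. Their sum showed no such order, with 2465 ± 623 TPM (n = 8) in M, 2240 ± 227.2 (n = 7) in ICM, 2696 ± 534.1 (n = 4) in LB EPI and 2830 ± 581.4 (n = 4) in Sph EPI. Complex III stood at 7056 ± 1148 TPM (n = 7) in ICM and 4892 ± 450.3 (n = 4) in LB EPI, but at 6490 ± 1065 (n = 5) in LB HYPO. Complex V stood at 12070 ± 1621 TPM (n = 7) in ICM, 8984 ± 924.3 (n = 4) in LB EPI and 10840 ± 975.1 (n = 4) in Sph EPI, and ICM and Sph EPI embryos overlapped.

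Levels of single members spanned a wide range. ATP5F1A, the alpha subunit of the ATP synthase, had the highest mean over the 7 labels, 3010 TPM, followed by NDUFA4 (2703 TPM), a subunit now placed with complex IV. Of the 54 genes, 17 had a mean above 1000 TPM and 11 a mean below 100 TPM. In all 220 cells, 27 genes exceeded a TPM of 1, and 41 did so in at least 200 cells. In complex I the means ran from 8.42 TPM (NDUFA6) to 1699 TPM (NDUFA9), both accessory subunits, and in complex II from 99.4 TPM (the assembly factor SDHAF2) to 1366 TPM (SDHD). In complex III they ran from 276.4 TPM (UQCRFS1) to 2378 TPM (UQCRQ), and in complex V from 324.3 TPM (ATP5ME) upwards. Among the 13 assembly factors the highest mean was that of COX17, 546.6 TPM, and COX10, which makes heme for complex IV, averaged 0.838 TPM and passed a TPM of 1 in 55 cells.

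By label, the highest mean of a gene fell in M for 16 genes, in ICM for 15 and in TE for 9. It fell in Sph EPI for 7, in LB EPI for 4, in LB HYPO for 3 and in Sph HYPO for 0. The lowest mean fell most often in LB EPI, for 15 genes, and in Sph HYPO, for 14. These counts rest on means alone, and many neighbouring labels overlapped.

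**Figure D2:**
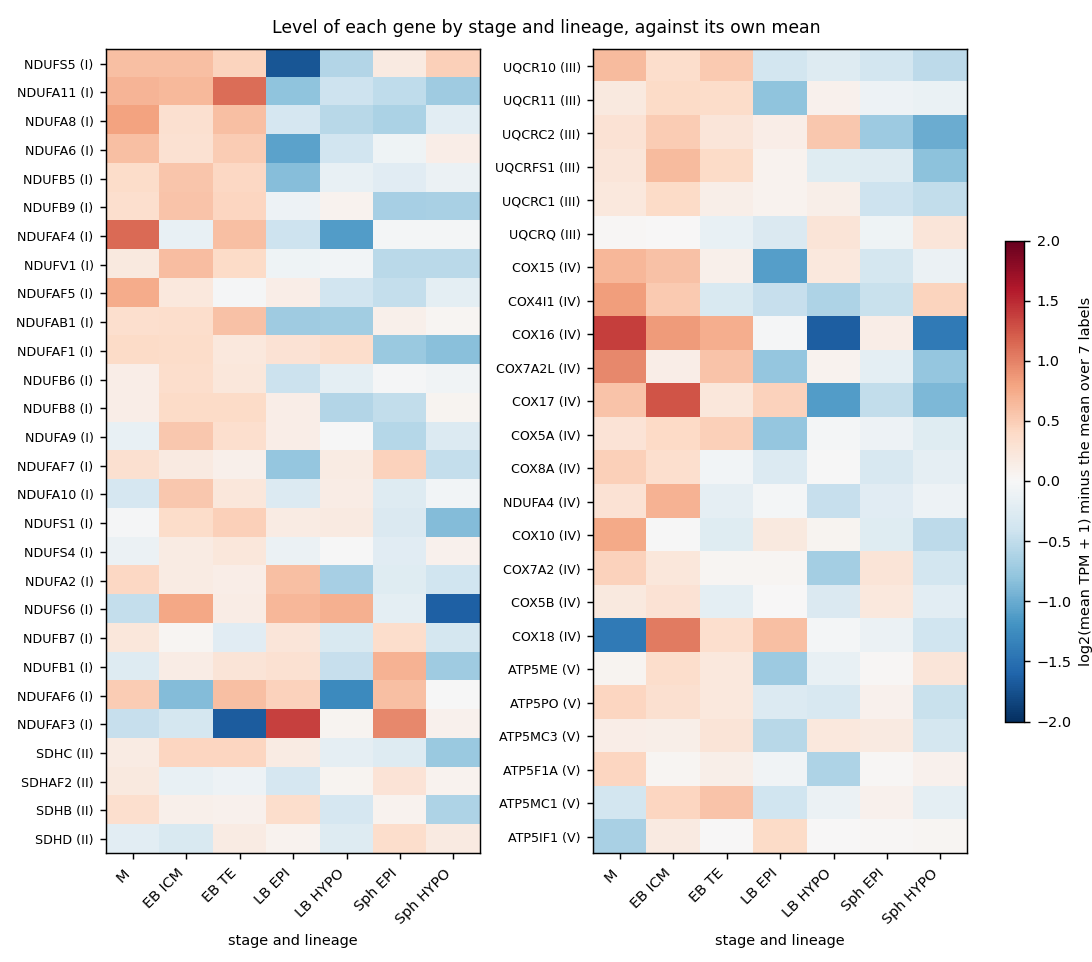
Level of 52 genes (rows, complex in brackets, NDUFA4L2 and 1 other gene left out) in the 7 labels (columns), as log2(mean TPM + 1) minus the mean over labels, from blue (lower) to red (higher). The left columns (M, ICM, TE) are mostly red and the LB and Sph columns mostly blue, with NDUFAF3 as an opposite case.

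The study followed genes of the electron transport complexes along the pluripotent lineage in single cells, and reported that part of the cytochrome c oxidase genes fell as the epiblast matured. Here, M and ICM were set against the EPI of both later stages on embryo sums, another unit and gene set. Of the 54 genes, 17 were called at a Benjamini-Hochberg adjusted p under 0.05 in edgeR's quasi-likelihood test on embryo sums (15 M and ICM sums, 8 EPI sums), with 26 at an unadjusted p under 0.05. The 17 are 31.5% of the genes, against 21.9% of the 14658 genes tested. Of these, 13 were higher in M and ICM (24.1% against 7.45% of all genes) and 4 were lower (7.41% against 14.4%). The 4 were SDHD, ATP5IF1, NDUFAF3 and NDUFA4L2, the last of which passed the limit on TPM only through EPI cells and so had to be lower in M and ICM. The median log2 fold change was 0.39 over the 54 genes and -0.19 over all genes, and 42 of 54 genes had a positive value (77.8% against 44.9%). With DESeq2, 23 genes were called (20 higher, 3 lower; 21.7% of all genes), and with limma on mean log2(TPM + 1), 28 (25 higher, 3 lower; 23.4% of all genes). Without TMM scaling the median over all genes moved to -0.12 and with limma to -0.01, and the median over the 54 genes to 0.46 and 0.54. Without TMM scaling 22 genes were called (22.2% of all genes), 19 higher and 3 lower. Library titles carry 8 different numbers, read here as library pools, which the labels do not state. In the first 4 of these pools alone 4 genes were called (NDUFA8, UQCRFS1, NDUFA11 and COX4I1, 14% of all genes), and in the last 4 pools 11 (14.6% of all genes). Leaving out 1 embryo at a time gave 9 to 22 calls. The count fell by more than 1.5 times without ICM embryo AG (11), LB EPI embryo AN (11), M embryos S (11), T (10) or Y (10), or Sph EPI embryos D (9), E (10) or F (9). Where genes share reads with near-identical copies elsewhere in the genome, their counts are uncertain, since the authors kept uniquely mapped reads.

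**Figure D3:**
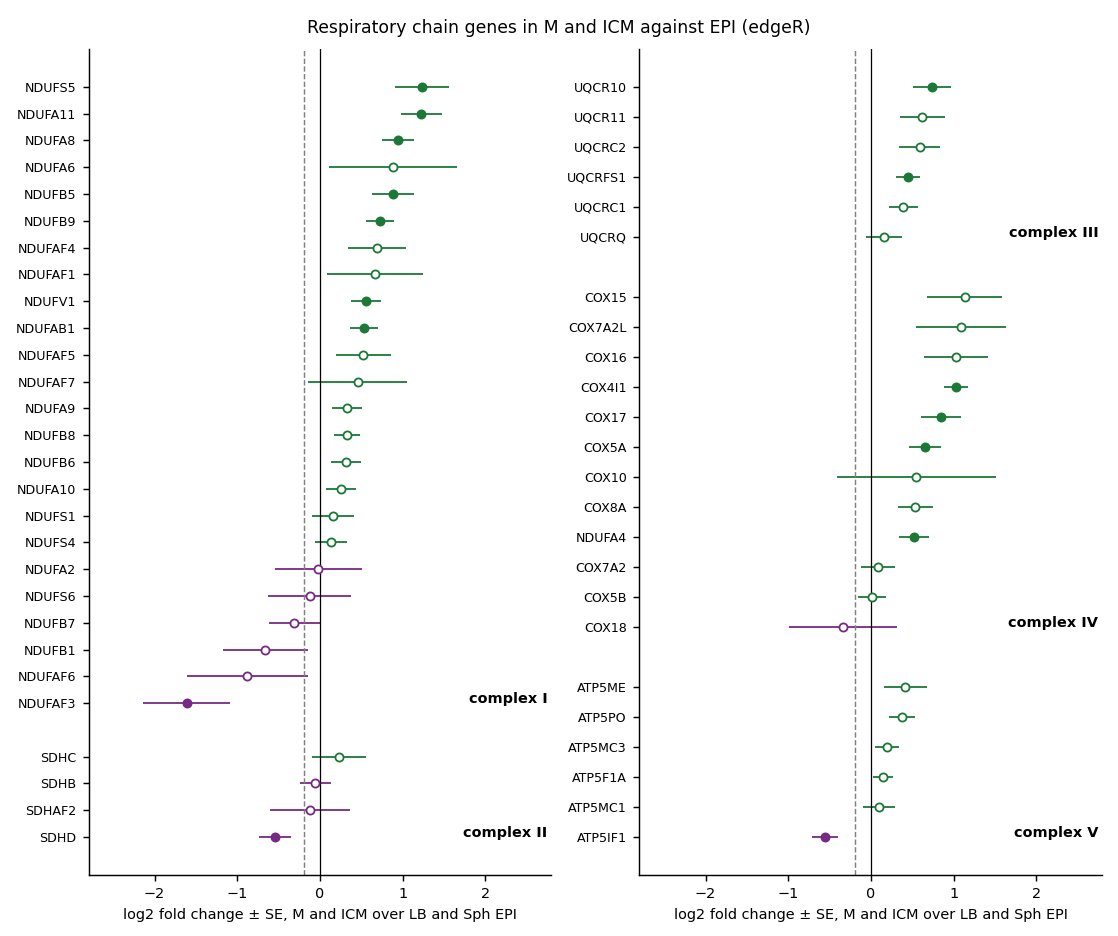
Log2 fold change ± standard error of 52 genes (NDUFA4L2 and 1 other gene left out) between M and ICM and the EPI of LB and Sph embryos (horizontal axis), grouped by complex. Filled points passed the adjusted threshold in edgeR and open points did not, positive values (green) are higher in M and ICM, and the dashed line is the median of all genes tested, -0.19. All 6 genes of complex III lie to the right of 0, and SDHD, ATP5IF1 and NDUFAF3 are the filled points to the left.

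In 3 genes, COX4I1, NDUFA11 and NDUFA8, every M and ICM embryo lay above every EPI embryo. This held for 0.72% of the 14721 genes kept, while no gene of the 54 had every M and ICM embryo below (1.21% of the genes kept). COX4I1 (ENSSSCG00000029034) encodes the subunit of cytochrome c oxidase through which ATP is known to regulate the enzyme. Its level ran from 912.3 TPM (median 1401) to 1879 TPM over the 15 M and ICM embryos and from 540.6 (median 610.4) to 741.2 TPM over the 8 EPI embryos. In edgeR the log2 fold change of COX4I1 was 1.03 with a standard error of 0.15 and an adjusted p of 1.526e-05. By label, the mean was 1494 ± 341.3 TPM (SD, n = 8) in M, 1208 ± 212.8 (n = 7) in ICM and 681.3 ± 259 (n = 10) in TE, and it was 1139 ± 383.8 (n = 3) in Sph HYPO. It was 608.8 ± 93.33 (n = 4) in LB EPI, 547.4 ± 77.78 (n = 5) in LB HYPO and 617.3 ± 35.27 (n = 4) in Sph EPI. COX4I1 was high in M, ICM and Sph HYPO, and low in both EPI groups, in LB HYPO and in TE except embryo E6-ER.

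NDUFA11 (ENSSSCG00000027307), an accessory subunit of the membrane arm of complex I, ranged from 223.6 (median 415.2) to 588.4 TPM in M and ICM embryos and from 93.84 (median 156.2) to 212.7 TPM in EPI embryos. In edgeR it had a log2 fold change of 1.23 with a standard error of 0.25 and an adjusted p of 0.000932. TE had the highest mean, 558.8 ± 222.1 TPM (SD, n = 10), with a median of 500.1 TPM and its highest value, 1033 TPM, in embryo E6-ER. The HYPO means lay near those of EPI, at 193.5 ± 37.53 (n = 5) in LB and 156 ± 69.89 (n = 3) in Sph. NDUFA8 (ENSSSCG00000005528), an accessory subunit on the intermembrane side of complex I, ranged from 449 (median 677.8) to 993.3 TPM and, in EPI, from 250.6 (median 291.8) to 434.4 TPM. Its edgeR log2 fold change of 0.94 had a standard error of 0.19 and an adjusted p of 0.00122. These 3 genes passed the threshold in edgeR, DESeq2 and limma, in both sets of pools and without each embryo in turn, with an adjusted p of at most 0.0224 in 35 alternatives.

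**Figure D4:**
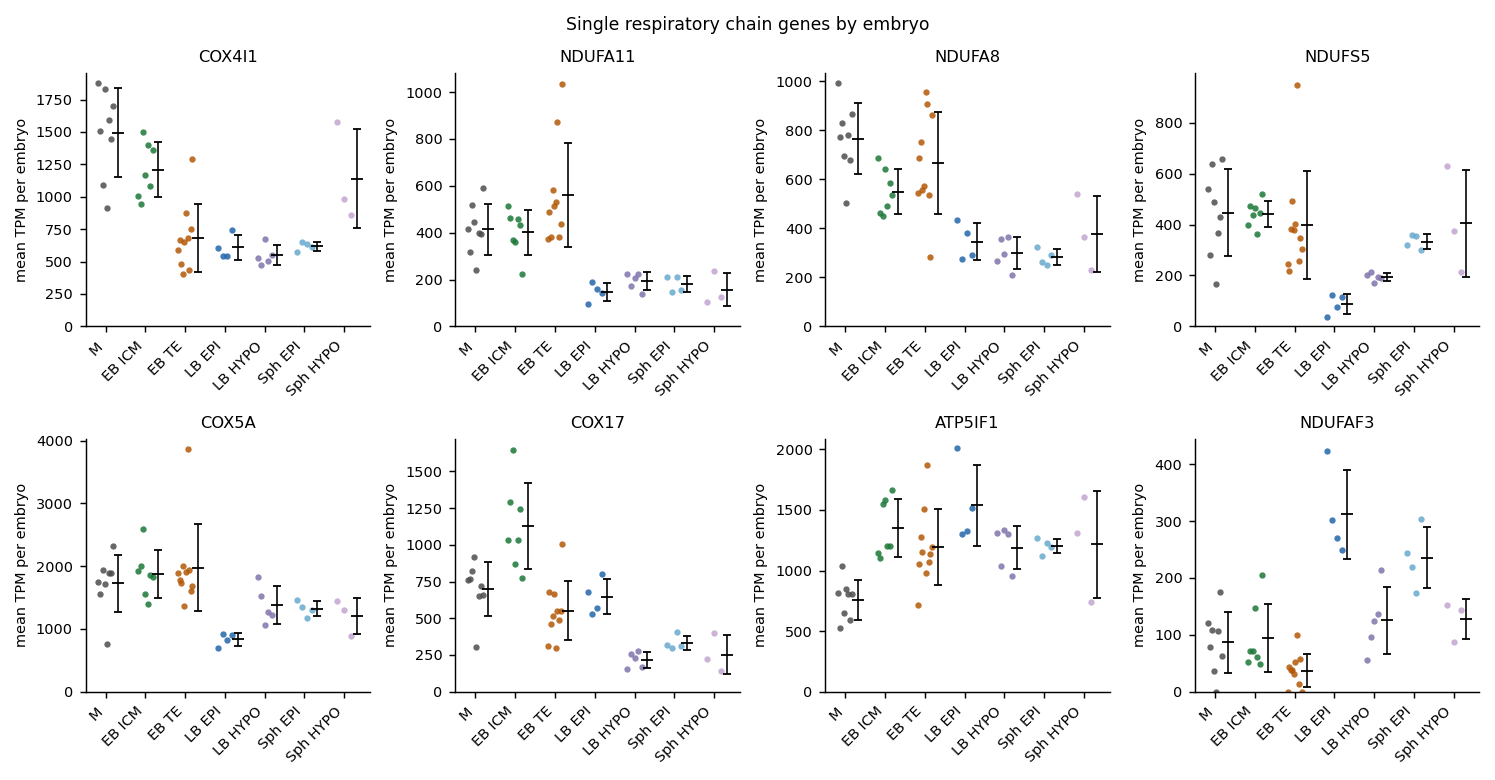
Mean TPM per embryo (vertical axes, from 0) of 8 genes in the 7 labels (horizontal axes). Points are embryos, and the bar beside them is the mean ± SD. COX4I1, NDUFA11 and NDUFA8 separate M and ICM from both EPI groups, NDUFS5 and COX5A are lowest in LB EPI, ATP5IF1 is lowest in M, and NDUFAF3 is highest in EPI.

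Complex I had 25 genes, of which 7 were higher in M and ICM, 1 was lower and 17 did not pass the test. Of all genes tested, 7.45% were higher and 14.4% were lower. Besides NDUFA11 and NDUFA8, the accessory genes NDUFB9 (0.72), NDUFS5 (1.23), NDUFB5 (0.88) and NDUFAB1 (0.53, log2 fold changes) were higher, with an adjusted p of 0.004 to 0.0267 from edgeR. NDUFAB1 encodes an acyl carrier protein that also serves mitochondrial fatty acid synthesis. NDUFV1, the core subunit that binds NADH, was higher by 0.56 (standard error 0.18, adjusted p = 0.0304 from edgeR). The core gene NDUFS1 had a positive value (0.16) that did not pass. NDUFB5, NDUFAB1 and NDUFV1 lost their calls without 6, 10 and 13 of the 23 embryos, with an adjusted p up to 0.0888, 0.156 and 0.162 (without Sph EPI embryo E, LB EPI embryo AN and Sph EPI embryo E).

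NDUFS5 also stood apart between the 2 EPI groups in its embryo values. It ranged from 165.2 (median 445.9) to 656.8 TPM in M and ICM, and stood at 36.73, 125.1, 75.22 and 115.8 TPM in LB EPI embryos AN, AO, AP and AQ. In Sph EPI embryos C, D, E and F it was 319.5, 358, 355 and 298.9 TPM. The LB and Sph EPI embryos did not overlap, and Sph EPI lay within the range of M. Between LB and Sph EPI edgeR gave -1.94 with a standard error of 0.56 and an adjusted p of 0.226, and DESeq2 called it (adjusted p = 0.00731).

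The gene of complex I that was lower in M and ICM is NDUFAF3 (ENSSSCG00000011371), an assembly factor that acts with NDUFAF4 early in building the complex. It ranged from 0 (median 71.98) to 205.7 TPM in M and ICM embryos and from 174 (median 259.9) to 423.9 TPM in EPI embryos, so the ranges overlapped at their ends. In edgeR this gave -1.61 on the log2 scale with a standard error of 0.53 and an adjusted p of 0.0298. Its lowest mean was in TE, 37.2 ± 29.86 TPM (SD, n = 10), and LB HYPO (125.2 ± 58.46, n = 5) lay between M and EPI. Leaving out any 1 embryo kept the call (adjusted p up to 0.0449), and either set of pools alone lost it (0.155 and 0.0687, edgeR), as did 1 model over all 7 labels (0.0927). NDUFAF4 itself had a value of 0.69 (standard error 0.35, adjusted p = 0.179 from edgeR).

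In complex II no gene of 4 was higher (7.45% of all genes), and SDHD (ENSSSCG00000015034), a membrane anchor, was lower in M and ICM (14.4% of all genes). It ran from 472.4 (median 1151) to 1565 TPM in M and ICM and from 887.2 (median 1528) to 2251 TPM in EPI, with wide overlap. Its edgeR value of -0.54 had a standard error of 0.19 and an adjusted p of 0.0441, and the call was lost without any of 7 embryos (adjusted p up to 0.0714, without LB EPI embryo AQ), without TMM scaling (0.0748) and with limma (0.101). SDHB (-0.06), SDHC (0.23) and SDHAF2 (-0.12) did not pass.

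In complex III all 6 genes had positive values and 2 passed the test, both higher in M and ICM (7.45% of all genes). UQCRFS1, the Rieske iron-sulfur protein, was higher in edgeR by 0.45 (standard error 0.15, adjusted p = 0.0295) and UQCR10, a small accessory subunit, by 0.74 (standard error 0.23, adjusted p = 0.0217). Both calls depended on single embryos, being lost without 13 and 9 of 23, with an adjusted p up to 0.292 (without Sph EPI embryo E) and 0.0962 (without Sph EPI embryo F). UQCRC2, which the study names among genes that fell from M and ICM to EPI in single cells, did not pass here. On embryo sums its value was 0.59 (standard error 0.25, adjusted p = 0.0903 from edgeR). It did pass without TMM scaling (0.65, adjusted p = 0.0455 from edgeR), with limma on either pseudocount (0.90 and 0.97, adjusted p = 0.0157 and 0.0164) and without M embryo V (0.67, adjusted p = 0.00929 from edgeR). Its level was 470.6 ± 92.98 TPM (SD, n = 7) in ICM, 363.2 ± 150.8 (n = 4) in LB EPI and 199.2 ± 38.58 (n = 4) in Sph EPI, and 481 ± 49.36 (n = 5) in LB HYPO. UQCRQ had 0.16 (standard error 0.22).

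In complex IV, 4 genes of 13 were higher in M and ICM (7.45% of all genes). The 1 lower gene, NDUFA4L2, passed the limit on TPM only through EPI cells, so its direction was fixed in advance. COX5A, a subunit on the matrix side, ranged from 755.9 (median 1859) to 2587 TPM in M and ICM and from 696.2 (median 1047) to 1463 TPM in EPI. Of the M and ICM embryos, M embryo V (755.9 TPM) alone lay within the range of LB EPI (up to 921.1 TPM), while Sph EPI (1173 to 1463 TPM) overlapped with ICM. In edgeR COX5A was higher by 0.66 (standard error 0.19, adjusted p = 0.0151), a call lost without any of 8 embryos (adjusted p up to 0.0996, without LB EPI embryo AN). COX17, the copper chaperone of the complex, was higher by 0.84 (standard error 0.24, adjusted p = 0.0146), a call lost without Sph EPI embryo D (0.0627) or F (0.0541). It was highest in ICM, at 1128 ± 294.3 TPM (SD, n = 7), and LB EPI (645.2 ± 119.7, n = 4) was close to M (699.7 ± 181.6, n = 8). NDUFA4 was higher by 0.52 in edgeR with a standard error of 0.18 and an adjusted p of 0.0418, a call that was lost without any of 17 embryos (adjusted p up to 0.228, without Sph EPI embryo E).

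The assembly factors COX15 (1.13) and COX16 (1.03) and the supercomplex factor COX7A2L (1.09) had large positive values that did not pass in edgeR (adjusted p = 0.0786, 0.0579 and 0.166). Their standard errors were 0.46, 0.39 and 0.54. DESeq2 and limma called COX15 (adjusted p = 0.0206 and 3.964e-05) and COX16 (0.000946 and 0.000548), and edgeR called COX7A2L in the last 4 pools (0.0023), in sums of at least 2 cells (0.000476) and without ICM embryo AI (0.0201). In isoform families, COX7A2 had 0.08 (standard error 0.21) and COX8A 0.54 (standard error 0.21, adjusted p = 0.0667 from edgeR). COX8A passed with DESeq2 (0.0188), with limma (0.00518) and in edgeR without TMM scaling (0.0303) or without M embryo V (0.00915). NDUFA4L2 (ENSSSCG00000027621), a paralogue of NDUFA4 known as a target of the hypoxia response, had the lowest mean, 0.212 TPM. No count fell on it in the 70 M and ICM cells with an embryo, and 111 counts fell on it in 13 of 73 EPI cells, with 23 in the highest cell. It passed the limit on TPM only through EPI cells, so its lower value in M and ICM was fixed in advance and is no result. DESeq2 did not call it (adjusted p = 0.121). A TPM above 1 was reached in 8 of 48 Sph EPI cells (16.7%, exact Clopper-Pearson 95% interval 7.48 to 30.2%) and in 2 of 25 LB EPI cells (8%, 0.984 to 26%), and in no cell of the other 5 labels. These intervals cover counting error only and treat cells of 1 embryo as if they were independent. None of the 24 ICM cells had a count, and a limit of 3 cells leaves room for a share of up to 12.5%.

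In complex V the 5 subunit genes analysed did not pass (21.9% of all genes did), with values from 0.10 (ATP5MC1) to 0.41 (ATP5ME). ATP5F1A had 0.14 (standard error 0.12), ATP5MC3 0.19 (standard error 0.14) and ATP5PO, the stalk subunit, 0.37 (standard error 0.16, adjusted p = 0.0879 from edgeR). ATP5MC1 and ATP5MC3 encode the same mature c subunit of the proton ring with different import sequences. ATP5IF1 (ENSSSCG00000027072), which inhibits ATP hydrolysis by the enzyme, was lower in M and ICM in edgeR, at -0.55 on the log2 scale with a standard error of 0.15 and an adjusted p of 0.0118. It ranged from 521.8 (median 1038) to 1663 TPM in M and ICM and from 1122 (median 1283) to 2015 TPM in EPI. The lower values were those of M, with a mean of 759.5 ± 165.5 TPM (SD, n = 8), while ICM stood at 1349 ± 237.9 (n = 7), LB EPI at 1538 ± 332.8 (n = 4) and Sph EPI at 1202 ± 61.21 (n = 4). ICM embryos overlapped with both EPI groups, and every LB EPI embryo was above every Sph EPI embryo.

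Between M and ICM, 3 of 53 genes tested were called, against 2.93% of all genes. NDUFAF4 was higher in M (1.16% of all genes were higher) and NDUFA10 and ATP5IF1 were lower (1.77% of all genes). NDUFAF4 ranged from 272.7 (median 340.7) to 508.7 TPM in M and from 43.39 (median 141.7) to 281.7 TPM in ICM, which in edgeR gave 1.34 on the log2 scale with a standard error of 0.35 and an adjusted p of 0.0412. NDUFA10, an accessory subunit of complex I, ranged from 165.5 (median 224.5) to 301.4 TPM in M and from 299.9 (median 422.4) to 573.8 TPM in ICM (edgeR -0.86, standard error 0.22, adjusted p = 0.037). In both genes the ranges overlapped by a few TPM. ATP5IF1 ran from 521.8 to 1038 TPM in M and from 1100 to 1663 TPM in ICM (-0.77, standard error 0.21, adjusted p = 0.0474 from edgeR), and it was the 1 gene of the 54 without overlap (1.68% of the 14721 genes kept). These calls stood close to the threshold, and each was lost without 9 to 13 of the 15 embryos (adjusted p up to 0.0751 for NDUFAF4 without ICM embryo AG, 0.0944 for NDUFA10 and 0.11 for ATP5IF1 without M embryo S). DESeq2 called 8 genes (8.9% of all genes) and limma 5 (4.52%), and both of these sets hold NDUFAF4, NDUFA10, ATP5IF1, ATP5MC1 and COX18.

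Between ICM and TE, COX4I1 alone was called among 53 genes, higher in ICM by 0.90 (standard error 0.20, adjusted p = 0.0337 from edgeR), where 0.913% of all genes were called and 0.696% were higher in ICM. It ranged from 944.8 (median 1167) to 1497 TPM in ICM and from 403.6 (median 658.2) to 1291 TPM in TE. The value of 1291 TPM belongs to embryo E6-ER, the cell without TE markers, and the other 9 TE embryos reached at most 874.6 TPM. Without that embryo the log2 fold change was 0.96 (adjusted p = 0.00698 from edgeR). Leaving out any of 15 other embryos of the 17 lost the call (adjusted p up to 0.0893, without TE embryo AD), as did scaling without TMM (0.0762). ICM and TE sums of 1 embryo are paired, and with the embryo as a replicate block the value was 0.96 with an adjusted p of 0.0689 from edgeR, so the call was lost. DESeq2 and limma each called COX4I1, COX17 and NDUFA4, all higher in ICM (3.47% and 1.54% of all genes called).

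Between ICM and LB EPI, 2 of 54 genes were called, COX4I1 and COX5A, both higher in ICM (3.26% of all genes were called and 1.24% were higher in ICM). COX4I1 ranged from 944.8 to 1497 TPM in ICM and stood at 607.4, 540.6, 546 and 741.2 TPM in LB EPI embryos AN, AO, AP and AQ (log2 fold change 0.90, standard error 0.21, adjusted p = 0.0257 from edgeR). COX5A ranged from 1395 to 2587 TPM in ICM and stood at 696.2, 921.1, 818.7 and 906.1 TPM in the same LB EPI embryos (1.05, standard error 0.27, adjusted p = 0.046 from edgeR). These were among 17 of the 54 genes (31.5%) whose ICM and LB EPI embryos did not overlap, 16 of them higher in ICM, against 6.41% of the genes kept. The COX4I1 call was lost without 4 of 11 embryos (LB EPI embryos AP, AN and AO and ICM embryo AG, adjusted p up to 0.0935) and the COX5A call without 8 (adjusted p up to 0.13, without LB EPI embryo AP). At an unadjusted p under 0.05 there were 17 genes, DESeq2 called 12 (11 higher, 1 lower, 9.98% of all genes) and limma 15, all higher (6.58%). The median over all genes was -0.26 in edgeR and 0 in limma, and the median over the 54 genes 0.48 and 0.70.

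No gene of the 54 was called between LB EPI and Sph EPI by edgeR (0.241% of all genes) or limma (0.659%), with 12 at an unadjusted p under 0.05 in edgeR. DESeq2 called 5 (5.86% of all genes), which were NDUFS5 (-1.89), NDUFAB1 (-0.89), ATP5MC3 (-0.78) and ATP5ME (-0.82), lower in LB EPI, and COX17 (0.87), higher there. COX17 stood at 678.6, 531.1, 572.4 and 798.6 TPM in LB EPI embryos AN, AO, AP and AQ. In Sph EPI embryos C, D, E and F it stood at 317.7, 299.5, 405.5 and 307.9 TPM. The edgeR value was 0.81 (standard error 0.33, adjusted p = 0.347). COX17 and NDUFS5 were among 14 genes (25.9%) whose LB and Sph EPI embryos did not overlap, against 8.08% of the genes kept.

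Between LB EPI and LB HYPO, edgeR called none of the 54 genes (2.17% of all genes), with 9 at an unadjusted p under 0.05. DESeq2 called 6 (10% of all genes) and limma 4 (4.73%), and COX7A2, COX17, SDHB and ATP5MC3 were in both sets. COX17 ranged from 151.1 (median 229.4) to 274.3 TPM in LB HYPO, below every LB EPI embryo (edgeR 1.39, standard error 0.49, adjusted p = 0.19). COX7A2, a small subunit of complex IV, ranged from 964.6 to 1123 TPM in LB HYPO and from 1569 to 1949 TPM in LB EPI (edgeR 0.74, standard error 0.27, adjusted p = 0.204). ATP5MC3 went the other way, with 1727 to 2096 TPM in LB HYPO and 980.4 to 1277 TPM in LB EPI (edgeR -0.82, standard error 0.21, adjusted p = 0.0732). These 3 were among 13 genes (24.1%) in which the embryos of the 2 lineages did not overlap, 6 higher and 7 lower in LB EPI, against 9.12% of the genes kept.

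In Sph embryos, edgeR called none between EPI and HYPO (1.29% of all genes), with 4 at an unadjusted p under 0.05, and neither did DESeq2 (10.4%) or limma (2.49%). The 4 were COX4I1 (-0.74), SDHB (0.81), ATP5MC3 (0.65) and COX7A2 (0.75). The median over all genes here was 0.70 and that over the 54 genes 0.29. COX4I1 stood at 1577, 980.1 and 860.3 TPM in Sph HYPO embryos C, E and F, above every Sph EPI embryo (569.9 to 651.9 TPM), with an adjusted p of 0.25 from edgeR. In all, 8 of the 54 genes (14.8%) did not overlap between the lineages, against 15.7% of the genes kept. Sph HYPO was also the HYPO group with a high sum of TE markers.

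Between LB HYPO and Sph HYPO, edgeR called none (0.183% of all genes), with 4 at an unadjusted p under 0.05, and DESeq2 (2.6%) and limma (0.163%) called none. The 4 were COX4I1 (-1.17), ATP5F1A (-0.82), UQCRC2 (1.32) and NDUFS1 (0.97). UQCRC2 ranged from 413.1 to 537.7 TPM in LB HYPO and from 95.4 to 205.5 TPM in Sph HYPO (standard error 0.38, adjusted p = 0.30 from edgeR). It was 1 of 5 genes (9.26%) without overlap between these groups, against 6.23% of the genes kept. The difference between EPI and HYPO was not shown to change from LB to Sph for any gene by edgeR (0.0414% of all genes), with 4 at an unadjusted p under 0.05. These were ATP5MC3 (-1.39), COX4I1 (0.90), NDUFB8 (1.07) and COX5A (-0.93). DESeq2 called NDUFB8, ATP5MC3 and COX4I1 (3.72% of all genes) and limma ATP5MC3 (1.16%). The genes named for comparisons without an edgeR call, and COX10, COX15, COX16, COX18, NDUFS1, SDHB, SDHC and ATP5PO, were chosen after their values were seen.

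Neighbouring pathways were read from lists of other genes in M and ICM against EPI. There, 21.9% of all genes were called, 7.45% higher and 14.4% lower. These short lists were not tested as sets, so their counts are no result about a list. Of 16 genes of pyruvate dehydrogenase and the tricarboxylic acid cycle, which feed electrons to the chain, 3 were higher and none lower, with a median of 0.21. Among them were DLD (1.16, standard error 0.19, adjusted p = 0.000101 from edgeR), a shared subunit of the dehydrogenase complexes, and PDHA1 (0.73, adjusted p = 0.0288), a subunit of pyruvate dehydrogenase. Of 4 electron carrier genes, cytochrome c, CYCS, (0.73, adjusted p = 0.00109) and ETFB (0.92, adjusted p = 0.0268) were higher, and ETFA (-0.60, adjusted p = 0.0171) and ETFDH (-0.66, adjusted p = 0.0452) were lower. CYCS stood at 1669 ± 136.7 TPM (SD, n = 4) in LB EPI and 3232 ± 599.5 (n = 5) in LB HYPO, and was lower in LB EPI (-1.07, standard error 0.23, adjusted p = 0.027 from edgeR). None of 13 further assembly factors was called by edgeR, with 2 at an unadjusted p under 0.05 and a median of 0.27.

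Of 9 regulators of mitochondrial biogenesis, ESRRB (4.30, adjusted p = 0.011 from edgeR), also one of the M and ICM markers, and TWNK (1.37, adjusted p = 0.0319), the mitochondrial DNA helicase, were higher. Over all genes, 7.45% were higher and 14.4% lower in this comparison. Of 4 genes linked to the hypoxia response of the chain, HIGD1A, which binds complex IV, was higher (1.80, standard error 0.16, adjusted p = 7.708e-09 from edgeR) and HIF1A was lower (-2.90, adjusted p = 0.00584). HIGD1A ranged from 1374 (median 1743) to 2171 TPM in M, from 2258 (median 3781) to 4523 TPM in ICM, from 1079 to 1154 TPM in LB EPI and from 340.7 to 603.2 TPM in Sph EPI. These 4 groups did not overlap, and the steps from M to ICM (-1.04, adjusted p = 0.00309), ICM to LB EPI (1.64, adjusted p = 0.000648) and LB EPI to Sph EPI (1.32, adjusted p = 0.0356) were each called by edgeR, each value being the first group over the second.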

How the data were processed

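Single cells of pig embryos were sequenced, and the authors aligned reads with HISAT2 2.1.0 and counted uniquely mapped reads with HTSeq, per the submitters' processing notes and the study's methods (pig genome build 10.2). The deposited values are raw counts and the authors' TPM for every gene in every cell. For each embryo and lineage the counts of its cells were added up (41 sums, 1 morula cell without an embryo left out) and tested with edgeR 4.0.16 in R 4.3.3 (quasi-likelihood test, TMM scaling, genes with a TPM above 1 in at least 3 cells, Benjamini-Hochberg adjustment over all genes tested, threshold 0.05). Levels are the mean TPM over the cells of an embryo, given as mean ± SD over embryos. Alternatives used DESeq2 1.42.0 and limma 3.58.1 on mean log2(TPM + 1), other filters, library pools and left-out embryos. The procedure was also run on simulated counts with planted changes larger than most of those reported here, so that run does not cover smaller changes. No 2 cells held identical values (0 pairs). Cells held a median of 2006853 counts. The genes, gene lists and tests were chosen with earlier results of these data known. Named were up to 12 called genes per direction between M and ICM and EPI, up to 5 elsewhere, isoform families, the highest and lowest gene of each complex, and UQCRC2. Sums of 2 lineages from 1 embryo are paired by that embryo, though they deviated together little (median correlations 0.0442, 0.0245 and 0.0639), and the fit with the embryo as a block was an alternative. Some single genes are not reported here. P-values set the difference between groups against the spread between embryo sums, which also holds spread between cells, as in sums of 1 cell. The main fits did not use the pairing.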

Additional observations from a re-analysis of the deposited data

Results flagged for a closer look

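A single embryo stood far from the rest of its label in 11 of 92 groups of 4 to 10 embryos tested. The groups reuse the same embryos and overlapping gene sets, so the flags are not independent and their number cannot be set against chance. M embryo V, with 2 cells, was low in complex II (1081 TPM), complex IV (6792 TPM), COX17 (302.8 TPM) and UQCRC2 (100 TPM). ICM embryo AD, 1 cell, was high in the sum of all 54 genes (56600 TPM) and in complex IV (19240 TPM). TE embryo AG, 1 cell, was high in the sum of all genes (58320 TPM), in complex IV (16130 TPM) and in COX5A (3873 TPM). TE embryo E6-ER, 1 cell without TE markers, was high in COX4I1 (1291 TPM), and LB EPI embryo AQ, with 10 cells, was high in complex IV (9959 TPM). Whether the number of cells plays a part was not tested.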

How the results depend on the processing

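Between M and ICM and EPI, 17 calls became 28 with limma (pseudocount 1 or 0.1), 11 in 1 model over all 7 labels, 4 in the first and 11 in the last pools, and 9 to 22 without 1 embryo. The 3 calls between M and ICM became 8 (DESeq2), 5 (limma), 0 (all 7 labels), 0 and 1 (pools), and 0 to 3 without 1 embryo. The 1 call between ICM and TE became 3 (DESeq2, limma, all 7 labels), 0 (no TMM, either pools) and 0 to 1 without 1 embryo. The 2 calls between ICM and LB EPI became 12 (DESeq2), 15 (limma), 6 (no TMM, filterByExpr, all 7 labels), 1 (no filter), 5 (without cells of uncertain embryo), 0 (either pools) and 0 to 3 without 1 embryo. With none called by edgeR, DESeq2 called 5 between LB EPI and Sph EPI, 6 between LB EPI and LB HYPO (limma 4) and 3 for the change of the lineage difference (limma 1), and leaving out 1 embryo gave 0 in each remaining comparison. With the embryo as a replicate block, 0 genes were called in each comparison where it could be fitted, which ended the COX4I1 call between ICM and TE (adjusted p = 0.0689 from edgeR) and changed no other call.

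Genes that were not called changed sign between M and ICM and EPI. Without 1 embryo, COX7A2 ran from -0.093 to 0.15, ATP5MC1 from -0.094 to 0.16, ATP5MC3 from -0.0084 to 0.25, UQCRQ from -0.0073 to 0.21, ATP5F1A from -0.013 to 0.22 and SDHAF2 from -0.31 to 0.056, and SDHAF2 stood at 0.16 in the first pools. The values farthest past 0 came without LB EPI embryos AN (COX7A2, ATP5F1A) and AP (SDHAF2), M embryo T (ATP5MC1) and Sph EPI embryos E (ATP5MC3) and F (UQCRQ). The cause was not tested. Mitochondrial genome genes could not be left out as planned, since they were not analysed here. Few embryos per label and 6 sums of 1 cell limit the precision.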

Other observations

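The morula cell without an embryo had a summed level of 45720 TPM for the 54 genes. The median over all 47 M cells, this cell included, was 46490 TPM (28900 to 66740 TPM). It held 2226 TPM of COX4I1, 488.7 TPM of NDUFA11 and 442.4 TPM of NDUFA8.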
